A study of Mus musculus with 6 samples.

Results

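GFP-negative-only promoter regions were DPPA4 peak regions at gene starts that appeared in the peak list of GFP-negative cells and not in that of GFP-positive cells. To define them, the peaks of both lists on chromosomes 1 to 19 were merged wherever they overlapped by 1 bp or more. A merged region belonged to the group when it held GFP-negative peaks alone and its midpoint fell in a promoter window, which began 2.5 kb before and ended 0.5 kb after a transcript start of the GENCODE vM21 annotation. There were 9222 such regions among 27405 promoter regions, which is 33.7% (Wilson 95% interval 33.1 to 34.2), and among 97623 regions in all. The remaining promoter regions comprised 15032 common regions with peaks of both lists and 3151 GFP-positive-only regions. Each of the 9222 members held exactly 1 peak. Because the members were chosen by the deposited peak calls, their class, number and peak strength are given as descriptions.

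The cells were mouse embryonic stem cells (ESCs) of the line EHMT2-dTAG-mcherry-mervl-gfp, a BL6/129 hybrid. They were cultured with serum and LIF on a feeder layer of mouse embryonic fibroblasts. EHMT2, a histone methyltransferase that deposits H3K9me2, carries a dTAG degradation tag in this line, and every sample was exposed to dTAG for 72 h, so loss of EHMT2 was common to both sorted groups and no untreated list was analysed here. Live cells were sorted by a GFP reporter under the promoter of the endogenous retrovirus MERVL, which is active in 2-cell-like cells (2CLCs) and silent in most ESCs. The series held 2 DPPA4 CUT&RUN libraries of GFP-negative cells, 2 of GFP-positive cells, and 1 IgG library each of GFP-negative and of bulk cells, for which no list was analysed. Whether the replicates came from separate clones is not stated in the sources used here. Each deposited DPPA4 list pools both libraries of its group, so no value below carries a spread between replicates and no difference between the lists could be tested. The GFP-negative list held 81913 peaks on chromosomes 1 to 19 and the GFP-positive list 53110. The authors state a nominal read number per sample, but how many reads each list rests on after filtering is unknown. More reads give more peaks from the same occupancy, so list length and cell state cannot be told apart. Peak lists hold no expression, and the identity of the sorted cells could not be checked against marker genes. Intervals given with a share are Wilson 95% intervals. They take in counting error alone, and regions that lie next to each other are not independent.

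DPPA4 is a chromatin protein of ESCs, germ cells and early embryos that pairs with DPPA2 and binds GC-rich DNA. The pair is needed for the expression of genes of zygotic genome activation in ESCs and keeps the promoters of many developmental genes free of DNA methylation. Mammalian promoters fall into a CpG-rich kind, typical of housekeeping and developmental genes, and a CpG-poor kind, typical of tissue-restricted genes. The CpG observed over expected ratio, which corrects the number of CG dinucleotides for base composition, separates them.

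Several of the strongest members show the CpG-poor sequence that most members had. Below are the 150 bp around the summit, the position of highest signal, for the 4 strongest members at protein-coding genes whose stretch is single-copy and overlaps no exon. Next to them stand the strongest CpG-rich member of the same kind, at Pgm2, and for contrast a CpG-rich common region of like strength at Tepsin. All are read 5′ to 3′ on the strand of the gene from the RefSeq copy of GRCm38.p6, the assembly of mm10, and capitals mark each CG dinucleotide. The stretches are chr17:27505517-27505666 on the minus strand (Grm4), chr8:12871532-12871681 on the plus strand (Mcf2l), chr8:3567768-3567917 on the plus strand (C330021F23Rik), chr10:80045950-80046099 on the plus strand (Gpx4), chr5:64092781-64092930 on the plus strand (Pgm2) and chr11:120098749-120098898 on the minus strand (Tepsin).
Grm4: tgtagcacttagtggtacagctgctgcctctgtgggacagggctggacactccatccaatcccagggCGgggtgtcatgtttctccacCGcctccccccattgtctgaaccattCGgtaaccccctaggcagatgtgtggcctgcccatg
Mcf2l: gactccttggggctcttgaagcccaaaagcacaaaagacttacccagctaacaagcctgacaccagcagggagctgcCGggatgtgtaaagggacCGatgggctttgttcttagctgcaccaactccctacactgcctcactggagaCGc
C330021F23Rik: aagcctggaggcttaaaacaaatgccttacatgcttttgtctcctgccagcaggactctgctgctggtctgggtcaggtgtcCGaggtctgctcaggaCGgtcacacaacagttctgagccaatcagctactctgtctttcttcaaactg
Gpx4: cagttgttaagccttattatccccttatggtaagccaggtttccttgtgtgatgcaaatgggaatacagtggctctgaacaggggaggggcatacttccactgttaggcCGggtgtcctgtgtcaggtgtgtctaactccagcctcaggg
Pgm2: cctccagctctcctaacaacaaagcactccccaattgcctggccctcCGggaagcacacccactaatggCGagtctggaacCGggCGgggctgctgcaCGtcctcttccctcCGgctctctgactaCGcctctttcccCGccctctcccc
Tepsin: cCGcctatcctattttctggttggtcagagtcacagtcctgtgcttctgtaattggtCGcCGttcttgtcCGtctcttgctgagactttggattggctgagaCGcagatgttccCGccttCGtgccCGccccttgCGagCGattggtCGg
Grm4 and Mcf2l each had 3 CG dinucleotides in the stretch, C330021F23Rik had 2 and Gpx4 had 1. Pgm2 had 8, and the common region at Tepsin had 11. The summits at Grm4 and Mcf2l lay in introns and the others were intergenic. Peak strength was read as −log10 q, the significance of the summit after the peak caller's correction for multiple tests. It was 60.8 for the GFP-negative peak at Tepsin, close to the 60.4 of Grm4, and 25.5 for the GFP-positive peak at Tepsin. Slco5a1 (50.6) and Rflna (46.9) also ranked among the strongest members, but the conditions on the stretch left them out. In the 300 bp around the summit they had 15 and 17 CG dinucleotides, against 6 at Grm4. Their CpG ratios were 0.631 and 0.468, against 0.217 at Grm4.

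Members were mostly weak peaks. The lowest −log10 q in either list was 1.30. Members had a median −log10 q of 2.701 (quartiles 1.86 and 4.74) and a highest value of 60.4. In common promoter regions the GFP-negative peak had a median −log10 q of 13.99 (6.44 and 29.4). The median fold enrichment over background was 3.75 (3.28 and 4.70) in members and 8.07 (5.22 and 12.7) in common promoter regions. Members resembled GFP-negative-only regions away from promoters, which had a median −log10 q of 2.52 and a median fold enrichment of 3.66. Median width was 532 bp in members, 1500 bp in common promoter regions and 469 bp in GFP-negative-only regions away from promoters. Of the members, 6992 (75.8%, 74.9 to 76.7) had a −log10 q under 5 and 706 (7.66%, 7.13 to 8.22) reached 10.

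Among promoter regions with a GFP-negative peak, the share without a GFP-positive peak fell at each step of strength. It was 82.4% (81.02 to 83.6) of 3255 regions when the −log10 q was under 2, and 56.7% (54.9 to 58.4) of 3071 regions from 3 to 5. Between 10 and 20 it was 13.7% (12.7 to 14.8) of 4145 regions, and at 20 or more it was 2.36% (1.999 to 2.78) of 5812 regions. The strongest decile of these regions, which began at 40.1, held 9 members among 2426 regions. Common regions that were weak in the GFP-negative list were weak in the GFP-positive list too. Those whose GFP-negative peak was under 2 had a median of 2.15 for the GFP-positive peak, and those at 20 or more had a median of 17.2.

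**Figure D1:**
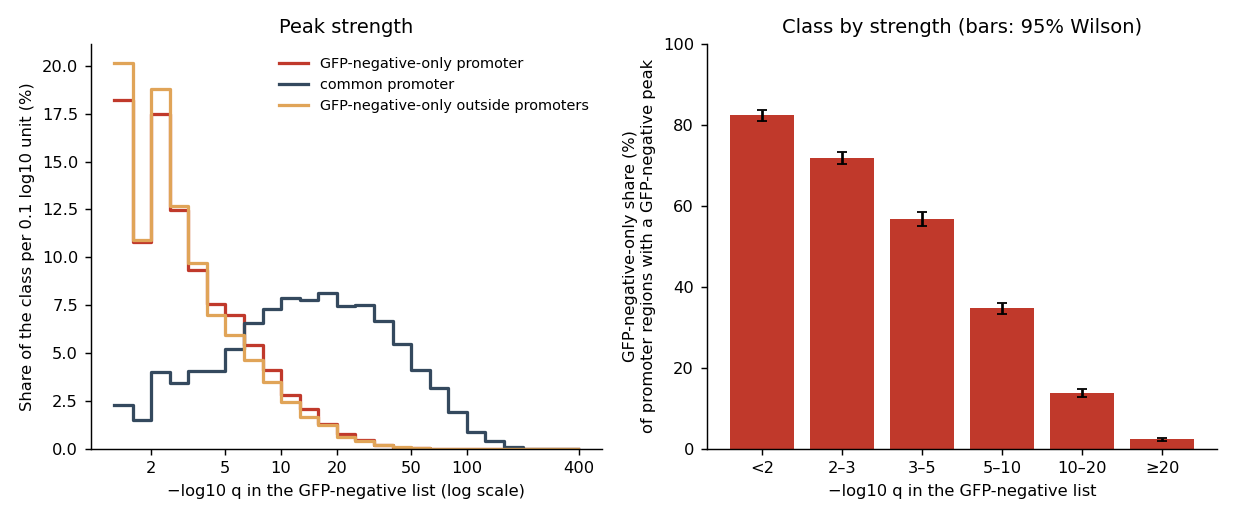
Left, distribution of −log10 q in the GFP-negative list (horizontal, log scale) as the percentage of each class per 0.1 log10 unit, for members, common promoter regions and GFP-negative-only regions outside promoters. Right, percentage of promoter regions with a GFP-negative peak that were GFP-negative-only in 6 bins of −log10 q, with Wilson 95% intervals. The share declines from 82.4% in the weakest bin to 2.36% in the strongest.

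Members lay farther upstream of the transcript starts whose windows they fell in than common regions did. Here and below, the nearest start is the nearest of those whose promoter window held the region midpoint. A closer start was passed over where the midpoint lay more than 0.5 kb downstream of it. With negative values upstream, the median position of the midpoint relative to the nearest start was −332.5 bp in members (quartiles −1389 and 31 bp) and −9 bp in common promoter regions (−251 and 123 bp). Within 250 bp of a start lay 37.9% (36.9 to 38.9) of members, 62.7% (61.9 to 63.5) of the common class and 23.8% (22.3 to 25.3) of the GFP-positive-only class. More than 1 kb upstream of the nearest start so defined lay 34.3% (33.3 to 35.2) of members. The share was 11.5% (10.96 to 11.98) of the common class and 45.99% (44.3 to 47.7) of the GFP-positive-only class. The region itself held a transcript start in 3862 members (41.9%, 40.9 to 42.9), against 86.7% (86.1 to 87.2) of the common class and 28.9% (27.4 to 30.5) of the GFP-positive-only class. Members thus stood between the other classes on each of these measures. Wider regions hold a start more easily, and the classes differed in width as given above.

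**Figure D2:**
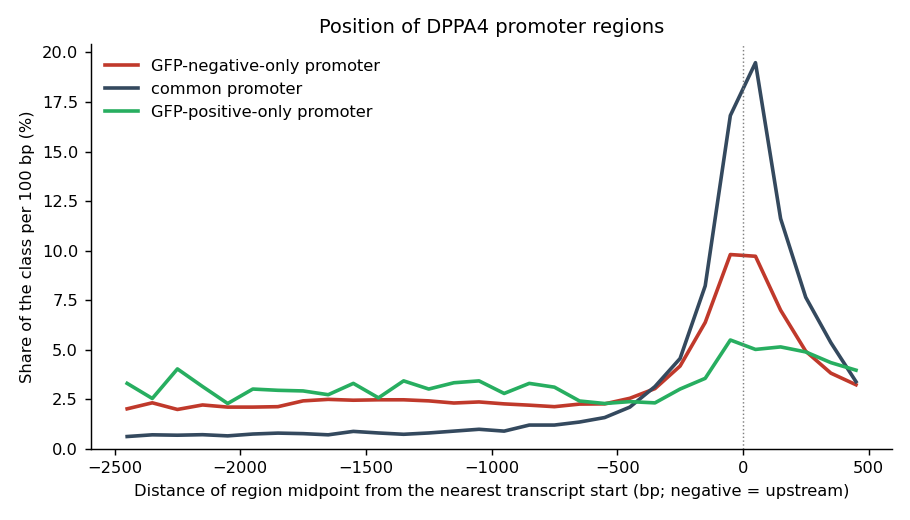
Percentage of each class of promoter regions per 100 bp (vertical) by the distance of the region midpoint from the nearest transcript start in bp (horizontal, negative upstream, dotted line at the start). The nearest start is the nearest of those whose promoter window held the midpoint. All 3 classes peak near the start, where common regions are highest, while members keep an even level upstream of 500 bp, above that of common regions.

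The summit of a member lay in an intron of the annotation in 44.6% (43.6 to 45.6) of cases and between genes in 28.5% (27.5 to 29.4). In common promoter regions these shares were 26.5% (25.8 to 27.2) and 37.4% (36.6 to 38.1). An untranslated exon held the summit of 9.34% (8.76 to 9.95) of members and 19.9% (19.2 to 20.5) of common regions. The nearest start belonged to a protein-coding gene in 6540 members (70.9%, 69.98 to 71.8), against 84.4% (83.8 to 84.96) of common regions. Long intergenic non-coding RNAs gave the nearest start of 808 members (8.76%, 8.20 to 9.36) and 3.35% (3.07 to 3.65) of common regions, and processed pseudogenes that of 507 members (5.50%, 5.05 to 5.98) and 2.82% (2.57 to 3.10) of common regions. Windows of protein-coding genes on opposite strands shared a region in 158 members (1.71%, 1.47 to 1.999) and in 8.47% (8.03 to 8.92) of common regions.

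Members were poor in CpG. Sequence was not used by the rule, and it was measured in the 300 bp around the summit. In common regions this was the summit of the peak with the highest −log10 q, whichever list held it. Median GC content was 54.0% (quartiles 49.7 and 58.7) in members, 62% (56.3 and 67.7) in common promoter regions, 50.3% (46.3 and 54.7) in GFP-positive-only promoter regions and 51.3% (48.0 and 55.0) in GFP-negative-only regions outside promoters. The median CpG observed over expected was 0.304 (0.182 and 0.491) in members and 0.705 (0.468 and 0.866) in common promoter regions. It was 0.255 in GFP-positive-only promoter regions, 0.236 in GFP-negative-only regions outside promoters, and 0.487 over 90265 starts of protein-coding transcripts. CpG-rich sequence, with a GC content of at least 50% and a ratio of at least 0.6, was found at 1407 members (15.3%, 14.5 to 16.01) and at 62.01% (61.2 to 62.8) of common promoter regions. GC content and the CpG ratio both had lower medians in members than in common regions on 19 of 19 chromosomes. In the whole region instead of 300 bp, the difference in median GC content went from −8 to −2.83 percentage points.

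The difference in sequence was also present among regions of like strength, and it widened with strength. At a −log10 q under 2, the median CpG ratio was 0.270 in members and 0.346 in common regions. From 5 to 10 it was 0.361 and 0.661, from 10 to 20 it was 0.347 and 0.758, and at 20 or more it was 0.261 in 137 members and 0.774 in 5675 common regions. Median GC content from 10 to 20 was 56.7% in members and 63.3% in common regions. In the range from 5 to 20 the median CpG ratio, the median GC content and the share of regions with a start were each lower in members on 19 of 19 chromosomes. A transcript start lay inside 69.4% (65.5 to 73.1) of members and 91.9% (90.95 to 92.7) of common regions from 10 to 20, and inside 24.9% (23.3 to 26.6) and 50.5% (46.4 to 54.6) under 2. With only the 10000 strongest peaks of each list kept, where a member may still overlap a weaker GFP-positive peak, the difference in the median CpG ratio, members minus common regions, was −0.123 over 1603 members.

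**Figure D3:**
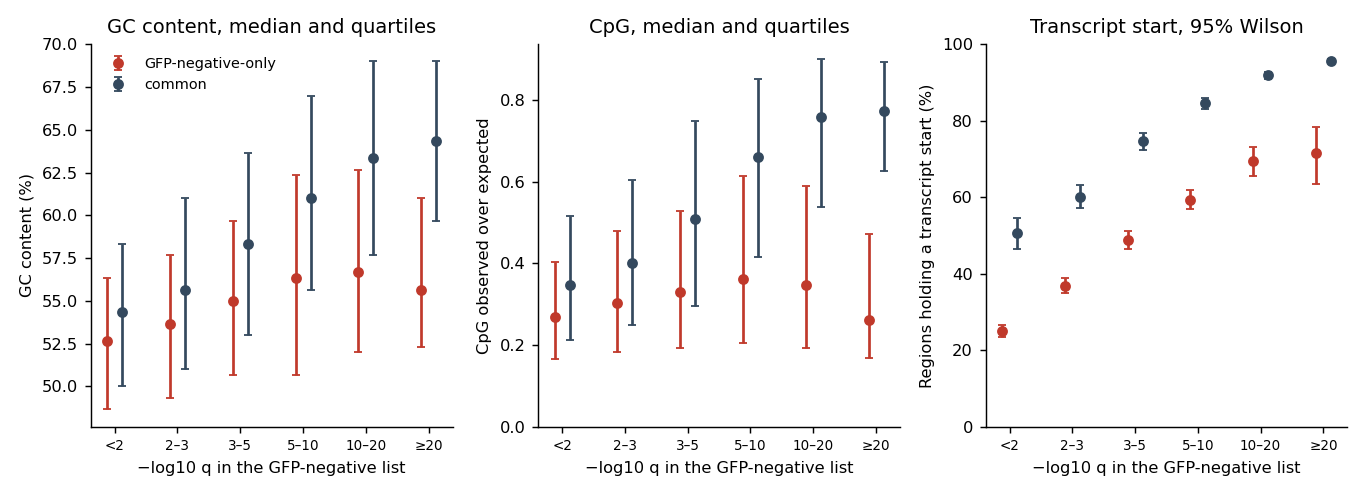
Median and quartiles of GC content in percent (left) and of CpG observed over expected (middle) in the 300 bp around the summit, and percentage of regions that hold a transcript start with Wilson 95% intervals (right), in 6 bins of −log10 q in the GFP-negative list. Members are red and common promoter regions dark blue. Members are lower in every bin, and the gap in CpG is widest at a −log10 q of 20 or more, where the medians are 0.261 and 0.774.

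The 1407 CpG-rich members formed a distinct minority. Their median midpoint lay at 6 bp from the nearest start, against −555 bp for the other 7815 members. They held a start in 77.97% (75.7 to 80.1) of cases, against 35.4% (34.3 to 36.4). Their median −log10 q was 3.90 against 2.52, and their median width 739 bp against 501 bp. The nearest GFP-positive peak was a median of 14040 bp from CpG-rich members and 4848 bp from the others.

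Little of the group was repetitive. On average 13.7% of the bases around a member's summit were soft-masked, the lower-case mark of repeats and low-complexity sequence, against 9.36% in common, 29.7% in GFP-positive-only promoter regions and 18.98% in GFP-negative-only regions outside promoters. Copy number, the median genomic count of the 31-mers in the 200 bp around the summit, was at least 2 at 395 members (4.28%, 3.89 to 4.72), against 23.2% (21.8 to 24.7) of GFP-positive-only promoter regions. The share was also low in common promoter regions (5.47%, 5.12 to 5.84) and in GFP-negative-only regions outside promoters (5.91%, 5.68 to 6.16). Reads with many matches were placed at a best or random copy by the authors, so a peak in multi-copy sequence does not show which copy was occupied.

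Short sequence motifs were searched as exact letters on either strand of the 300 bp windows. Motifs that hold a CG were less frequent in members than in common promoter regions. The GC box of SP and KLF factors (GGGCGG) was present in 26.3% (25.4 to 27.2) of members, 60.8% (60.0005 to 61.6) of common regions and 35.98% (35.4 to 36.5) of 31396 RefSeq promoters of the same length. The ETS core (CCGGAAG) was present in 4.32% (3.92 to 4.75), 14.2% (13.6 to 14.7) and 9.004% (8.69 to 9.33), and the NRF1 core (GCGCATGCG) in 0.423%, 2.41% and 1.74%. The YY1 core (AAGATGGCG) stood at 0.401%, 2.99% and 1.39%, the CRE of ATF and CREB factors (TGACGTCA) at 0.727%, 2.15% and 1.83%, and the ZBTB33-type core (TCTCGCGAG) at 0.0651%, 0.812% and 0.643%. The E-box (CACGTG) was present in 5.89%, 8.28% and 7.14%.

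The SOX, OCT4 and ESRRB motifs, which hold no CG, were more frequent in members than in common regions, but not within CpG-rich sequence. The SOX core (ACAATGG) was present in 5.58% (5.13 to 6.07) of members, 2.51% (2.28 to 2.78) of common regions and 3.61% (3.41 to 3.82) of RefSeq promoters. The OCT4 octamer (ATGCAAAT) was present in 2.13% (1.85 to 2.44), 1.34% (1.17 to 1.54) and 1.75% (1.61 to 1.90), and the ESRRB site (TCAAGGTCA) in 1.26% (1.05 to 1.51), 0.539% (0.434 to 0.669) and 0.417% (0.352 to 0.495). Within CpG-rich sequence the GC box was found in 60.3% (57.7 to 62.8) of members and 75.5% (74.6 to 76.3) of common regions. There the octamer was found in 0.924% (0.541 to 1.57) and 1.12% (0.922 to 1.35), the SOX core in 1.92% (1.32 to 2.78) and 1.83% (1.58 to 2.13), and the ESRRB site in 0.284% (0.111 to 0.729) and 0.268% (0.182 to 0.396). GFP-positive-only promoter regions had the SOX core in 3.68% (3.08 to 4.40), the octamer in 1.396% (1.04 to 1.87) and the ESRRB site in 1.17% (0.853 to 1.61), the last with an interval that overlapped that of members. At a −log10 q from 5 to 20 the OCT4 octamer was found in 3.30% (2.61 to 4.15) of members and 1.16% (0.929 to 1.46) of common regions, and the SOX core in 5.45% (4.55 to 6.50) and 2.47% (2.12 to 2.87). The ESRRB site stood at 1.10% (0.733 to 1.64) and 0.636% (0.469 to 0.862), with overlapping intervals. GFP-negative-only regions outside promoters had the SOX core, the octamer and the ESRRB site in 7.38%, 3.29% and 1.72%, so these shares were not particular to promoters. The KLF4-type box (GGGTGTGG) was present in 6.81%, 4.80% and 3.57% of members, common regions and RefSeq promoters, and the ZIC-type core (CAGCAGG) in 16.9%, 12.4% and 10.6%. The TATA box (TATAAA) stood at 7.69%, 3.79% and 13.6%, and the CCAAT box (CCAAT) at 29.6%, 37.99% and 37.3%. Within CpG-rich sequence the ZIC-type core stayed more frequent in members, at 14.8% (13.0 to 16.7) against 9.98% (9.39 to 10.6) of common regions. The KLF4-type box did not, at 2.63% (1.91 to 3.60) against 3.55% (3.19 to 3.95). A match is a description of the letters and not evidence of binding, and base composition, which moved with each class, was not separated from motif content.

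The 20 strongest members at protein-coding genes had a −log10 q from 31.2 to 60.4 and a fold enrichment from 10.8 to 21.6. All 20 had single-copy summits, 15 held a transcript start and 2 were CpG-rich. For 12 of the 20 genes, members were the only promoter regions, and 8 genes also had a common region. Among all 5040 protein-coding genes with a member, 2159 had members alone. The nearest GFP-positive peak lay within 1 kb in 3 and within 10 kb in 13 of the 20, against 20.96% and 60.6% of all members.

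The strongest of all was at Grm4, a metabotropic glutamate receptor (chr17:27504639-27505883, position −1937 bp), with a fold enrichment of 21.6 and the nearest GFP-positive peak 1248 bp away. Slco5a1, an organic anion transporter (chr1:12990128-12991800), had its member over the start, with a −log10 q of 50.6 and the nearest GFP-positive peak 60374 bp away. Mcf2l, a guanine nucleotide exchange factor (chr8:12870686-12872305), followed with a −log10 q of 48.3, and Rflna, a filamin-binding protein (chr5:125002940-125004911), with 46.9 and a fold enrichment of 17.2. The uncharacterised C330021F23Rik (chr8:3566708-3568265) had a −log10 q of 46.8. Gpx4, the peroxidase that detoxifies lipid hydroperoxides (chr10:80045448-80046481), reached 41.8, but a GFP-positive peak lay 76 bp from this member. Htra1, a secreted serine protease (chr7:130981990-130983062), reached 40.6 with the nearest GFP-positive peak 114910 bp away, the longest gap of the 20.

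Further strong members lay at genes of varied function. Mbtps1, the site-1 protease that cleaves membrane-bound transcription factors, had a −log10 q of 37.4 at a summit where 82.3% of the bases were soft-masked, and Rph3a, a synaptic vesicle protein, had 37.3. Gpr20, an orphan receptor, stood at 37.0, Msln, a cell surface protein, at 35.5, and 2200002J24Rik at 34.9. Srpk1, a kinase of splicing factors, stood at 34.2, with a single CG in 300 bp (CpG ratio 0.0473), and Klk11, a kallikrein, at 33.8. Agps, an enzyme of ether lipid synthesis, and Mapk12, a p38 kinase, both had 33.2. Itga6, a laminin receptor subunit widely expressed in stem cells, had 33.02, Spire1, an actin nucleator, 31.98, Bicral, a subunit of a BAF complex, 31.4, and Pgm2, a phosphoglucomutase, 31.2. Among starts of non-coding genes, chosen after their values were seen, the strongest member was at the long non-coding RNA Platr22 (chr1:136694803-136696974), with a −log10 q of 55.1 and the nearest GFP-positive peak 3908 bp away.

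The widest members were at Fignl2 (6614 bp), Sept9 (4478 bp) and Rbfox3 (4313 bp). Their −log10 q was 14.9, 26.6 and 5.51. GC content ran from 33% at a member near Aloxe3, a lipoxygenase of the skin, to 86.7% at a member of 161 bp at 4921531C22Rik, and both had a −log10 q under 3. Members at the limits of the rule ranged widely in strength. Just inside were members at −2500 bp from a start of Majin (−log10 q 3.62), at −2499 bp from a start of Arc (1.93), at 499 bp from a start of Eif3a (2.01) and at 498 bp from a start of Pnma2 (20.1), and just outside was a region at −2501 bp from a start of Esrrb (8.24). The weakest members, at Frmd4a and Gm26772, had a −log10 q of 1.30. At Cacna2d2 a GFP-positive peak touched the member with a gap of 0 bp, while at Zbtb48 peaks that shared 5 bp made a region common. Only 13 of 15032 common promoter regions rested on a shared stretch of 50 bp or less.

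Many members lay close to GFP-positive peaks that they did not overlap. The nearest GFP-positive peak lay a median of 5710.5 bp away (quartiles 1266 and 21223 bp), within 500 bp of 983 members (10.7%, 10.05 to 11.3) and within 1 kb of 1933 members (20.96%, 20.1 to 21.8). For GFP-negative-only regions outside promoters the median was 9822.5 bp, and 9.73% (9.43 to 10.03) lay within 1 kb. Of 6757 members in windows of protein-coding genes, 3924 (58.1%, 56.9 to 59.2) lay at a gene that also had a common promoter region. In these the nearest GFP-positive peak was a median of 1755 bp away, the median position was −676.5 bp from the nearest start, and 8.18% (7.36 to 9.08) were CpG-rich. The other 2833 members were at genes without a common region. They had a median gap of 14720 bp and a median position of −49 bp, 63.1% (61.4 to 64.9) held a start, against 32.95% (31.5 to 34.4) of the former, and 30.04% (28.4 to 31.8) were CpG-rich. Their median −log10 q was 3.11, against 2.48. A common region holds a GFP-positive peak by definition, so the shorter gap at genes with one follows in part from the split itself.

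**Figure D4:**
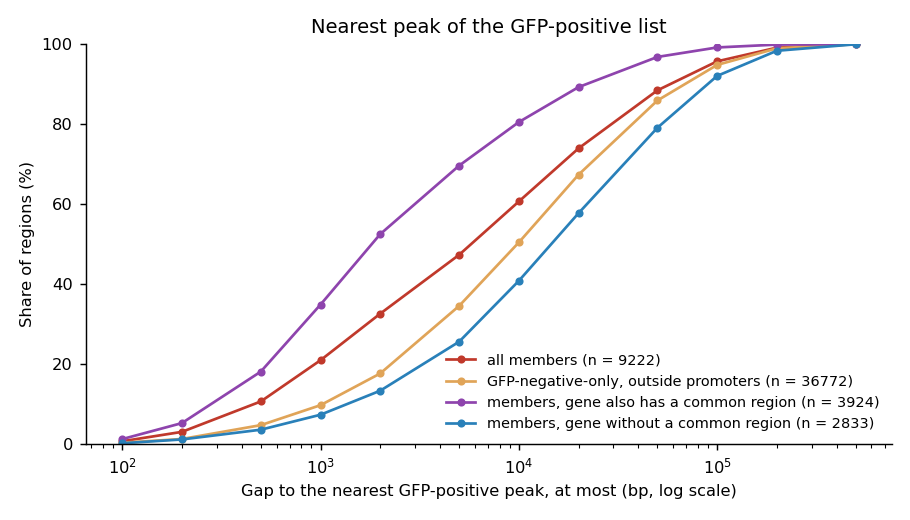
Cumulative percentage of regions (vertical) whose nearest GFP-positive peak lies within a given gap in bp (horizontal, log scale), for all members, GFP-negative-only regions outside promoters, and members split by whether their protein-coding gene also had a common promoter region. Members beside a common region are nearest, with a median gap of 1755 bp. Members of genes without a common region are farthest, with a median of 14720 bp. A common region holds a GFP-positive peak by definition, so part of this contrast follows from the split.

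At the level of genes, 5040 of 20807 protein-coding genes (24.2%) had at least 1 member in a promoter window. Members were the only promoter regions of 2159 genes (10.4%, 9.97 to 10.8), while 2762 genes (13.3%, 12.8 to 13.7) had members beside common regions and 119 had members and GFP-positive-only regions without a common region. For comparison, 12053 genes (57.9%) had a common promoter region and 6074 (29.2%) had no promoter region. A single member was found at 3710 genes and 2 at 929 genes. The genes with the most members had several annotated starts. Zmynd8, a chromatin reader, had 10 members, 4 common regions and 1 GFP-positive-only region across chr2:165852823-165897964. Tfeb, a transcription factor of lysosomal genes, had 9 members and 1 common region, and Ssbp3, a cofactor of LIM-domain complexes, had 8 and 1. Bicral and Loxl3, a lysyl oxidase, each had 7 members and no common region.

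Gene lists were read against the 10.4% of all protein-coding genes whose only promoter regions were members, and the 24.2% with any member. Of 717 entries in 20 lists, 695 matched a protein-coding gene on these chromosomes. The shares with members alone were highest in 4 lists. Members were the only promoter regions of 6 of 19 genes of formative and primed pluripotency (31.6%, 15.4 to 53.99), 6 of 27 of trophoblast and primitive endoderm (22.2%, 10.6 to 40.8), 12 of 67 lineage transcription factors (17.9%, 10.6 to 28.7) and 7 of 42 genes of TGF-beta, BMP and Nodal signalling (16.7%, 8.32 to 30.6). Intervals of the first 3 of these lists lay above 10.4%, by a narrow margin for the latter pair, and those of the TGF-beta list and of naive pluripotency (3 of 23 genes, 13.0%, 4.54 to 32.1) included it. The intervals are not adjusted for the 20 lists. The order of some lists depended on weak peaks. With members held to a −log10 q of at least 5, lineage transcription factors had 2 of 67 genes (2.99%, against 3.94% of all genes), and with the 10000 strongest peaks of each list 3 of 67 (4.48%, against 6.31%). With those 10000 peaks trophoblast and primitive endoderm had 1 of 27 (3.70%).

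Genes of formative and primed pluripotency, the states that follow the naive state in the embryo, had at least 1 member in 12 of 19 cases. This share was 63.2% (41.0 to 80.9), against 24.2% of all genes. The strongest member of each gene had a median −log10 q of 4.57, against 3.11 over all genes with a member. The 6 genes with members alone, listed after their values were seen, were Lef1 (−log10 q 7.89), T (5.65), Lefty2 (5.19), Fgf5 (4.57), Otx2 (4.57) and Foxd3 (4.29). Lef1 is a transcription factor of Wnt signalling, T and Foxd3 are transcription factors of early development, Lefty2 is a Nodal inhibitor, Fgf5 a growth factor of the epiblast and Otx2 a factor of primed cells and the anterior brain. The nearest GFP-positive peak lay 180270 bp from the strongest member at Otx2, 65781 bp at Lef1 and 43010 bp at Fgf5. At Lefty2 it lay 2174 bp and at Foxd3 1585 bp away. The strongest member of the list was at Dnmt3a, a de novo DNA methyltransferase (−log10 q 8.47, position −1753 bp), and Etv5, an ETS factor, followed Lef1 with 5.89. Both of these genes also had a common region.

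Among lineage transcription factors, 29 of 67 had a member (43.3%, 32.1 to 55.2, against 24.2% of all genes), with a median −log10 q of 2.51. The strongest were at Pax6, a factor of eye and brain (6 members, up to 20.9, beside common regions), Lhx3, a factor of pituitary and motor neurons (14.7, beside a common region), and Gata5, a factor of heart and endoderm (10.7, members only, 12810 bp from a GFP-positive peak). In the trophoblast and primitive endoderm list, 10 of 27 genes had a member (37.0%, 21.5 to 55.8, median 3.72), and the interval included 24.2%. Sparc, a matrix protein of parietal endoderm (15.4), and Krt18, a simple-epithelium keratin (8.52), had members only, and Col4a1, a basement membrane collagen (6.40), also had a common region. Gata6, the primitive endoderm factor, had a single member of −log10 q 1.45, named after its value was seen.

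In TGF-beta, BMP and Nodal signalling 14 of 42 genes had a member (median 6.30). The strongest were at Ski (19.5), a repressor of SMAD signalling, Bmpr1b (17.6), a BMP receptor, and Smad6 (11.7), an inhibitory SMAD, and all of these genes also had common regions. The 7 genes with members only, named after their values were seen, included the ligands Tgfb2 (3.62), Tgfb3 (3.07) and Inhba (2.84), the receptors Acvr1c (9.49), Tgfbr3 (8.52) and Tgfbr2 (5.57), and the ubiquitin ligase Smurf1 (7.02). Naive pluripotency genes had a member in 11 of 23 cases (47.8%, 29.2 to 67.04, median 3.36), an interval above the 24.2% of all genes. The strongest were at Dppa3 (22.2), a maternal factor that protects DNA methylation, Dppa5a (9.87), an ESC RNA-binding protein, and Esrrb (5.89), a nuclear receptor. Each of these genes also had a common region. The share of this list with members alone depended on the setting. With the 10000 strongest peaks of each list it was 6 of 23 (26.1%, against 6.31% of all genes). It was 0 of 23 with members held to a −log10 q of at least 5 (against 3.94%). It was also 0 of 23 with lists of equal length (against 7.25%).

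Other signalling lists lay below 10.4% for genes with members alone, and at or above 24.2% for genes with any member. Members were the only promoter regions of 2 of 25 genes of Hippo, 2 of 30 of Notch, 2 of 41 of Wnt-beta-catenin, 0 of 29 of FGF-ERK and 0 of 18 of LIF-JAK-STAT signalling. The intervals of these shares were 2.22 to 24.97, 1.85 to 21.3, 1.35 to 16.1, 0 to 11.7 and 0 to 17.6%, and all included 10.4%. With any member counted, the shares were 44.0%, 33.3%, 24.4%, 31.03% and 27.8% in the same order, each with an interval that included 24.2% except Hippo (26.7 to 62.9), and the medians were 2.51, 4.46, 4.05, 2.29 and 2.84. The position of 3 lists turned with the 10000 strongest peaks of each list, where the share with members alone was 17.2% in FGF-ERK, 16.7% in LIF-JAK-STAT and 16.7% in Notch signalling, against 6.31% of all genes. Notch signalling was also above all genes with both lists at a −log10 q of at least 2 (6 of 30 genes, against 12.2%) and at least 5 (23.3% against 14.7%), and Hippo signalling at the latter (16.0%). Named members were at Ccn1 (14.3), Lats2 (13.4) and Tead4 (5.49) in Hippo signalling, where Tead4 had a member only. They were at Notch3 (22.99), Notch4 (17.3) and Hes5 (9.09) in Notch signalling, all beside common regions, and at Lgr5 (12.5, member only), Wnt11 (8.49) and Lef1 in Wnt signalling. In FGF-ERK signalling they were at Grb2 (14.9), Dusp6 (8.45) and Fgfr1 (4.90), and in LIF-JAK-STAT signalling at Cish (6.91), Bcl3 (4.29) and Lifr (2.84), all beside common regions.

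Chromatin and housekeeping lists had few genes with members alone, while most of their genes had a common region. The interval for members alone included the 10.4% of all genes in each of these lists. The counts were 0 of 32 for H3K9 methylation and heterochromatin, 2 of 34 for Polycomb proteins, 1 of 42 for BAF and NuRD complexes, 2 of 48 for DNA repair and the p53 pathway, 1 of 49 for cell cycle regulators, 1 of 46 for spliceosome components, 0 of 31 for proteasome subunits, 1 of 27 for glycolysis and 3 of 38 for germline and meiosis. A common region was present at 31 of 31 proteasome genes, 48 of 49 cell cycle genes and 44 of 46 spliceosome genes, against 57.9% of all genes. With any member counted, against 24.2% of all genes, the shares were 34.4%, 32.4%, 33.3%, 27.1%, 26.5%, 19.6%, 22.6%, 51.9% and 21.1% in the same order, and the interval lay above 24.2% in glycolysis (33.99 to 69.3) alone. The strongest members of the genes had medians of 2.701, 4.17, 3.06, 3.04, 2.52, 1.57, 1.82, 4.23 and 3.52. With the 10000 strongest peaks of each list, 6.31% of all genes had members alone. The share was higher in the glycolysis (18.5%), cell cycle (10.2%), proteasome (9.68%), BAF and NuRD (9.52%), Polycomb (8.82%) and germline (7.89%) lists. It was lower in the spliceosome (2.17%), H3K9 methylation (3.125%) and DNA repair (4.17%) lists.

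The strongest members of the H3K9 list lay at Kdm3a (10.4), an H3K9 demethylase, Cbx1 (9.03), an HP1 protein, and Ehmt2 (3.55), the tagged gene itself, at position −2103 bp. Polycomb genes gave Jarid2 (13.99), Kdm2b (9.09) and Phc1 (6.44), and the BAF and NuRD list Bicral (31.4), Chd5 (18.7) and Smarcd2 (5.89). Ccnd3 (16.2), E2f2 (8.52) and Ccnd2 (4.49, members only) led the cell cycle list. Slc2a3 (9.92), a glucose transporter, Tpi1 (6.86, member only) and Pfkm (6.68) led glycolysis, and Spo11 (13.5), the nuclease of meiotic breaks, Meiob (10.7, member only) and Hsf2bp (4.56) led the germline list. DNA repair gave Fancc (6.74), Xpa (5.49) and Xrcc2 (5.02, member only). Proteasome and spliceosome genes had weak members, at Psmb3 (3.45), Psmd3 (2.12), Psmc2 (1.90), Snrnp70 (3.35), Dhx16 (3.11) and Srsf7 (2.84, member only).

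None of 28 genes of the 2-cell stage had a member, 0% with an upper bound of 12.1%. That bound lay below the 24.2% of all genes with any member, but above the 10.4% with members alone. Of these genes 16 had GFP-positive-only promoter regions and no other, 1 had a common region and 11 had no promoter region, against 402 GFP-positive-only genes among all 20807. Many of these genes lie in multi-copy families. Like the other lists, this one was chosen with earlier results of these data known, so its counts are descriptions only.

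**Figure D5:**
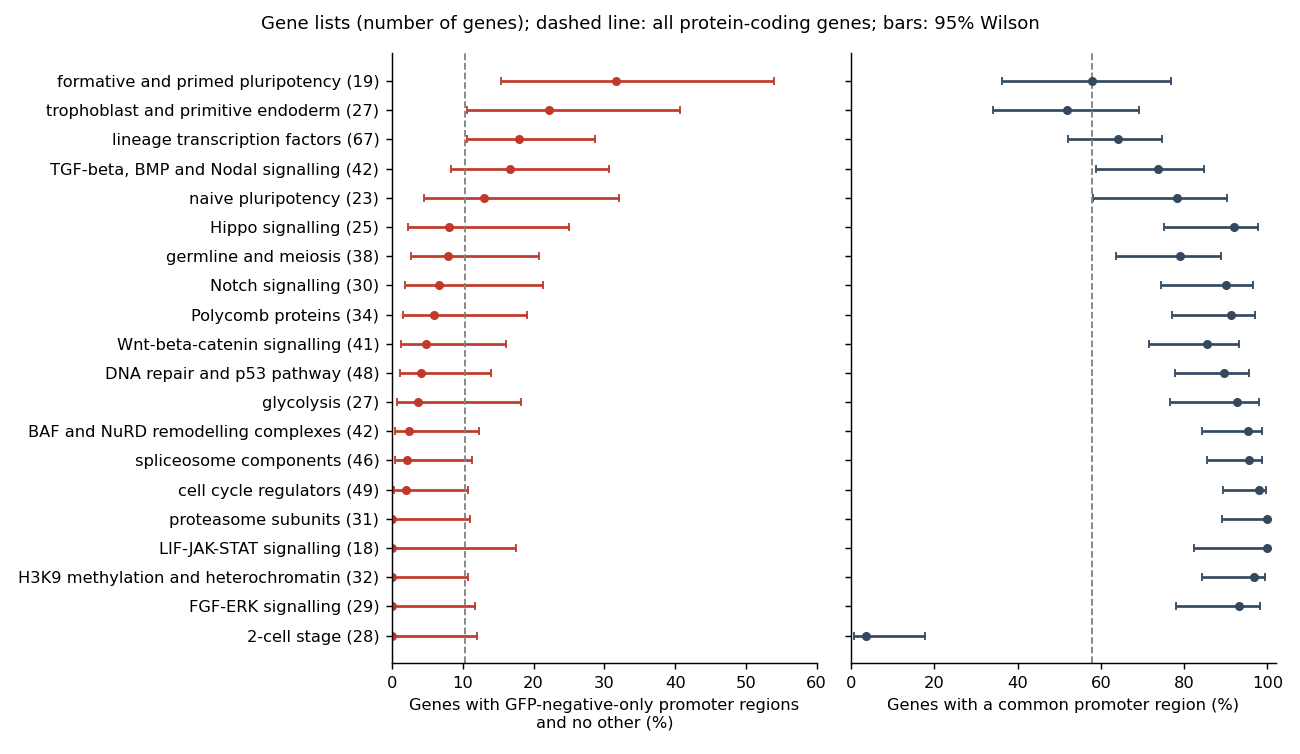
Percentage of the genes of each list whose promoter regions were all GFP-negative-only (left) and percentage with a common promoter region (right), with Wilson 95% intervals and the number of genes in brackets; dashed lines mark all protein-coding genes (10.4% and 57.9%). Formative and primed pluripotency stands highest on the left at 31.6%, and the 2-cell stage list has no such gene and 1 gene with a common region.

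Genes were also grouped by the leading letters of their symbols. Among 38 such groups with at least 40 protein-coding genes, the share with members alone was highest in Ttc (10 of 42 genes, 23.8%, 13.5 to 38.5), the G protein-coupled receptors Gpr (13 of 64, 20.3%, 12.3 to 31.7), the interleukins Il with their receptors (15 of 77, 19.5%, 12.2 to 29.7), the keratins Krt (10 of 53, 18.9%, 10.6 to 31.4) and the surface antigens Cd (18 of 97, 18.6%, 12.1 to 27.4). Solute carriers (Slc) had 56 of 358 (15.6%, 12.2 to 19.8). It was 0 in the ribosomal proteins Rpl (0 of 51) and Rps (0 of 41), the histones Hist (0 of 67) and Zbtb (0 of 40), where a common region was present at 78.4% to 95.1% of genes. Olfactory receptors (Olfr) had 14 of 1128 (1.24%, 0.741 to 2.07), and 96.6% of them had no promoter region in either list. Zinc finger genes (Zfp) had 33 of 385 (8.57%, 6.17 to 11.8).

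Members were spread over the genome. Their share of the promoter regions of a chromosome had a median of 33.8% and ran from 26.98% (24.4 to 29.8) on chromosome 12 to 38.7% (34.997 to 42.5) on chromosome 18. Chromosomes 6 (38.4%) and 14 (37.0%) were next highest, with intervals that overlapped that of chromosome 18.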

How the data were processed

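The authors trimmed reads, aligned them with STAR (2.7.10) to mm10 so that each multimapping read kept a best or random position, removed duplicates with Picard (2.26.0) and blacklisted regions, and called peaks with MACS2 (2.2.6), pooling both DPPA4 libraries of a group. Whether IgG served as control is not given in the sources used here. The deposited lists give a fold enrichment (ratio to background), the −log10 q of the summit, a score and the summit offset in bp, besides a −log10 p column that was not used, as the score was not. Peaks were merged, annotated to GENCODE vM21 and read against GRCm38.p6 with Python 3.11.15, numpy 2.4.6 and pandas 2.3.3, and the steps were tested on simulated data. Peak ends beyond a chromosome numbered 0. With 1 pooled list per group, no test was made. Genes were named by rule: the 20 strongest members at protein-coding genes, up to 3 genes per list, the 5 genes with most members, the 3 widest members and both extremes of GC content; others are marked where they appear. RefSeq promoters were the background for motifs. The members and gene lists were chosen with earlier results of these data known.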

Additional observations from a re-analysis of the deposited data

Results flagged for a closer look

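Chromosomes X and Y lie outside the rule for these regions. On chromosome X, data that no comparison above used, the same steps gave 169 GFP-negative-only promoter regions among 522 promoter regions (32.4%, Wilson 95% interval 28.5 to 36.5), with a median −log10 q of 2.89 and a highest value of 15.1 at Sept6. On chromosome Y there were 0 among 5 promoter regions. With pooled lists no sample could be compared with others of its group.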

How the results depend on the processing

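No paired analysis was possible because the peak lists pool both libraries of a group, and for the same reason no replicate could be left out. The number of members, 9222, changed by more than 1.5 times to 5939 with peaks up to 1 kb apart merged, 5522 with both lists at a −log10 q of at least 5, 2230 with members alone held to 5, 4838 with the GFP-negative list shortened to the length of the GFP-positive list, and 1603 with the 10000 strongest peaks of each list. Genes with members alone numbered 819 and 1313 under the third and last of these. The share of promoter regions, 33.7% at first, was 30.2% with a window of 1 kb to either side, 30.6% with protein-coding starts only and also with peaks up to 500 bp apart merged, 28.3% at 1 kb, 34.7% and 36.4% with both lists at 2 and 5, 10.9% with members at 5, 20.98% with lists of equal length and 22.9% with 10000 peaks each. The difference between members and common regions in the share holding a start, −44.8 percentage points, was −38.6 with the 1 kb window, −42.9 and −39.9 with peaks merged at 500 bp and 1 kb, −37.9 and −20.8 with both lists at 2 and 5, −24.02 with members at 5, −35.8 with equal lengths and −8.63 with 10000 peaks each. The difference in median GC content, −8 points, was −7.33 with the 1 kb window, −5 with both lists at 5, −5.67 with members at 5, −7.33 with equal lengths, −1.67 with 10000 peaks each and −2.83 in whole regions. That in the CpG ratio, −0.401, was −0.379 with the 1 kb window, −0.413 with protein-coding starts, −0.277 with both lists at 5, −0.357 with members at 5, −0.123 with 10000 peaks each, −0.386 in 200 bp and −0.297 in whole regions. No difference turned its sign under any of the alternatives run for it. Against all genes of the same setting, the share of genes with members alone was above in 11 of 11 alternatives for formative and primed pluripotency and for TGF-beta signalling, 10 for trophoblast and primitive endoderm, 9 for lineage transcription factors, 6 for naive pluripotency, 3 for Notch signalling, and in 0 for the 2-cell stage, H3K9 methylation, DNA repair and the spliceosome. It was above in 1 or 2 for every other list. Weak peaks limit the depth: a missing GFP-positive peak does not show that DPPA4 was absent.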
